A study of Mus musculus with 3 samples.

Results

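Differentiating oligodendrocyte-lineage cells were the cells in which UMIs (unique molecular identifiers, one per captured transcript) of at least 2 of the 3 genes Bcas1, Enpp6 and Gpr17 were found. A barcode counted as a cell when it held at least 3000 UMIs and at least 500 genes, with at most 20% of its UMIs from mitochondrial genes. By that rule 401 of 17920 cells, or 2.24%, were lineage cells, and the remaining 17519 are called other cells below. Neural progenitors of postnatal day 1 mouse brain had been expanded as neurospheres with epidermal growth factor at 20 ng/mL, plated on a poly-D-lysine coat at 50000 cells and kept for 16 h before treatment. The control group (CTRL) received no electroporation, per its label. The bulk group (BEP) was electroporated in a Nucleofector Y unit, and the localized group (LEP) on a device with 400 pulses at 20 V. All groups were dissociated with trypsin, the electroporated ones 4 h after the pulse, and 10000 cells of each went into droplet sequencing from the 3' ends of transcripts. The labels name no strain, sex, cargo or genetic alteration, and say that cells were plated on polystyrene dishes or on localized electroporation devices without giving the surface of CTRL.

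Each group was 1 library, so a difference between groups cannot be told apart from a difference between those libraries, and no test was made. All intervals are exact 95% intervals, Poisson for summed UMIs and Clopper-Pearson for shares of cells, and they cover counting error only. The libraries held between 5531 and 6298 cells and between 61775756 and 77491732 UMIs in cells. Between 6 and 9 cell barcodes were shared by each pair of libraries, and 2 of these shared barcodes belonged to a lineage cell. Levels are given as CPM (counts per 1e6 UMIs), from the UMIs summed over the cells named.

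Oligodendrocytes are the cells that wrap axons of the central nervous system in myelin. They arise from dividing precursors, marked by the growth factor receptor Pdgfra and the proteoglycan Cspg4, which leave the cell cycle and pass through a short committed stage before they make myelin. Bcas1, Enpp6 and Gpr17 mark that stage: Bcas1 is a protein of premyelinating and early myelinating cells, Enpp6 is a choline-specific phosphodiesterase of newly forming oligodendrocytes, and Gpr17 is a receptor that is high in committed precursors and falls before myelination. In GRCm38, Bcas1 lies on chromosome 2 from 170346991 to 170427845 on the minus strand, and Enpp6 on chromosome 8 from 46986887 to 47096762 on the plus strand. Gpr17 lies inside the gene body of Lims2 on the opposite strand, and since it is not stated whether counting used the strand, the values of Lims2 are uncertain.

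The lineage cells were not spread evenly over the libraries. CTRL held 103 among 6091 cells (1.69%, interval 1.38 to 2.05%), BEP 50 among 5531 (0.904%, 0.672 to 1.19%) and LEP 248 among 6298 (3.94%, 3.47 to 4.45%). LEP was thus highest and BEP lowest, with no overlap of the counting intervals. A rule that asks for UMIs finds more cells where cells are deeper, and the median lineage cell had 6344 UMIs in CTRL, 9739.5 in BEP and 13515.5 in LEP, against 9575, 11651 and 10933 in other cells. When every cell was thinned to 3000 UMIs, 61 cells of CTRL (1.00%), 18 of BEP (0.325%) and 101 of LEP (1.60%) still met the rule, in the same order. Free RNA also differed: barcodes with 10 to 100 UMIs held Bcas1 at 14.7 CPM in CTRL, 10.1 in BEP and 31.1 in LEP, highest in the library with the largest share. Its part in the shares was not tested. Among cells with UMIs of at least 2 of the astrocyte genes Aqp4, Gfap and Gja1, the share with a Bcas1 UMI was 3.70% of 189 cells in CTRL, 3.10% of 323 in BEP and 5.73% of 628 in LEP. Of those cells 3 in CTRL, none in BEP and 17 in LEP were lineage cells themselves. The median depth of the astrocyte-gene cells was 12647 UMIs in CTRL, 16763 in BEP and 13109.5 in LEP.

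**Figure D1:**
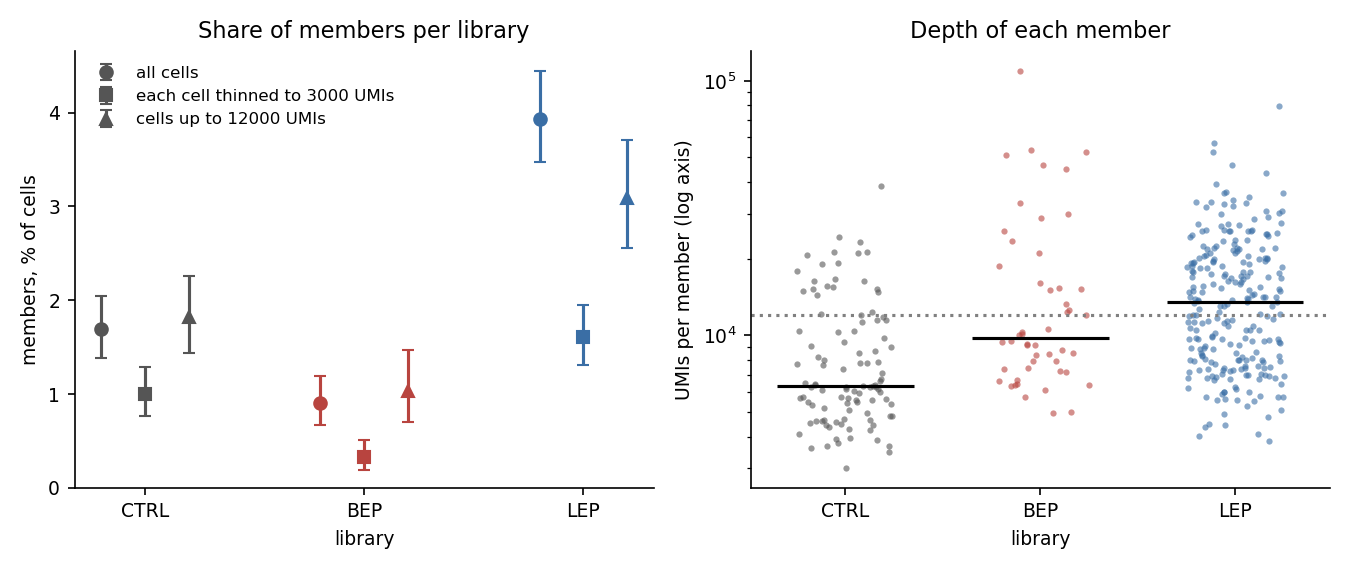
Left, the share of cells that met the rule (members, % of cells) in each library for all cells, for cells thinned to 3000 UMIs and for cells of up to 12000 UMIs, with exact 95% intervals. Right, the UMIs of each member on a log axis, where 1 point is 1 cell, the bar is the median and the dotted line marks 12000 UMIs; LEP has the largest share in each of the 3 counts on the left and the deepest median cell on the right.

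The share of lineage cells differed by depth. In cells of at least 3000 and under 6000 UMIs the share was 3.99% in CTRL, 0.493% in BEP and 4.46% in LEP, so that CTRL and LEP were close in this range and BEP was far below them. In cells of at least 6000 and under 9000 UMIs it was 1.65%, 1.71% and 3.77%. In cells of 20000 UMIs or more it was 3.66%, 1.46% and 12.7%, and this deepest range held the largest share of LEP. Lineage cells with more than 12000 UMIs numbered 23 in CTRL, 20 in BEP and 134 in LEP, and they carried 45.5%, 72.8% and 76.4% of the summed lineage UMIs. The deepest cell alone gave 12.5% of the lineage UMIs of BEP. Values of lineage cells with up to 12000 UMIs are therefore given beside many of the results that they change, a limit chosen after levels by depth had been seen. No doublet caller was run, and no doublets were removed.

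The 3 genes of the rule were present at different rates. Bcas1 was found in 399 of the 401 lineage cells, Gpr17 in 380 and Enpp6 in 130. Bcas1 with Gpr17 alone made up 271 cells (68 in CTRL, 28 in BEP, 175 in LEP), all 3 genes 107 cells (28, 15 and 64), Bcas1 with Enpp6 21 cells and Enpp6 with Gpr17 2 cells. The usual lineage cell thus carried Bcas1 and Gpr17 without Enpp6. Bcas1 stood at 552 CPM in CTRL, 396 in BEP and 462 in LEP lineage cells, and Enpp6 at 197, 115 and 112. Gpr17 stood at 223, 79.7 and 177 CPM, lowest in BEP. These levels were set by the rule and are a description of who was chosen. At the edge of the rule, the 76 lineage cells with exactly 2 UMIs of these genes had 7.18 CPM of Mbp and 126 of Sox10. Outside it, the 1322 cells with 1 rule gene had 4.24 CPM of Mbp and 56.1 of Sox10. The 245 lineage cells with 5 or more such UMIs had 235 and 280 CPM. Vim, an intermediate filament of progenitors, stood at 1548 CPM at the edge, 2319 outside and 1294 in the cells with 5 or more. The cells at the edge thus lay between the other two for these 3 genes, near those outside for Mbp and near the core for Vim.

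The label was checked against genes that the rule did not name, and most of what follows compares the lineage cells with other cells. Since the rule picked the cells from these same counts, the comparison describes them and supports nothing further. Other cells were weighted so that each library had the same part as in the lineage cells, and 1 CPM was added to both levels before a log2 ratio was taken. The count covers 6347 genes that reached 20 CPM in one of the sets: 315 (4.96%) stood at least 2-fold higher in lineage cells, and 186 (2.93%) lower by that much. In cells of up to 12000 UMIs 525 of 6341 (8.28%) were higher and 538 (8.48%) lower. The counts of list genes that follow are to be read beside these shares, though they use every gene of a list with no minimum level.

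Structural myelin genes stood far above other cells. Among genes of at least 50 CPM that met the naming rules under processing, without the rule genes, Mbp had the largest ratio. Mbp, which encodes myelin basic protein, stood at 201 CPM in CTRL, 248 in BEP and 127 in LEP lineage cells against 1.04, 1.14 and 0.871 in other cells, a pooled log2 ratio of 6.35. Its UMIs came from 27 of 103, 24 of 50 and 67 of 248 lineage cells, so most of them carried none. Cnp, a phosphodiesterase of the inner myelin tongue, stood at 474, 359 and 387 CPM against 35.6, 36.1 and 66.7. Both were higher in lineage cells of every library, with wide gaps to other cells. Mag, which faces the axon, was low but present at 6.53, 10.2 and 7.46 CPM against at most 0.0783 in other cells, and Cldn11, the tight junction protein of myelin, stood at 29.4, 26.2 and 11.8 CPM.

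Most late myelin genes were at or near 0. Mog, a marker of mature oligodendrocytes, had 1 UMI in all lineage cells, as had Mobp, while Mal, Ermn and Aspa had none in any library. Opalin, a late membrane protein, had 14 UMIs in CTRL, 4 in BEP and 12 in LEP, at 15.2, 4.56 and 3.09 CPM. Of the 26 genes of myelin and maturation other than the rule genes, 13 stood at least 2-fold higher in lineage cells and 2 lower by that much. Their median log2 ratio was 1.07, against 0.06 over all genes compared. The lower ones were Cryab, a small heat shock protein, at 12.5 CPM against 36.7, and Car2, a carbonic anhydrase, at 41.2 against 119. Of the late genes named here, Opalin was thus present at a low level and the others were at 0 or 1 UMI.

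Enzymes for the glycolipids of myelin went with the structural genes. Ugt8a, which makes galactosylceramide, stood at 112 CPM in CTRL, 78.6 in BEP and 64.6 in LEP lineage cells against 2.88, 3.59 and 4.66 in other cells (log2 ratio 3.86). Gal3st1, which adds the sulfate that turns it into sulfatide, stood at 76.1, 49.0 and 70.8 CPM (4.16), and Fa2h, the fatty acid 2-hydroxylase, at 18.5, 22.8 and 16.7 CPM (4.01). Among 16 genes of glycosphingolipid and fatty acid synthesis 4 were at least 2-fold higher and none lower, with a median of 0.31. None of the 19 genes of cholesterol synthesis differed by 2-fold from other cells, and their median was 0.25. Their sums were 3786 CPM in CTRL, 2215 in BEP and 2837 in LEP lineage cells against 2839, 1701 and 2551 in other cells. Up to 12000 UMIs they were 4309, 3913 and 3052 CPM against 2953, 1940 and 2589, a wider gap in each library.

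Genes of the committed stage were mostly higher. Of 20 such genes, 15 were at least 2-fold higher than in other cells and none lower, with a median of 2.05. Sirt2, a deacetylase of the myelin sheath, stood at 713 CPM in CTRL, 489 in BEP and 505 in LEP (log2 ratio 3.04), and Itpr2, a calcium release channel, at 188, 107 and 119 CPM (2.85). Tnr, a matrix glycoprotein, stood at 285, 132 and 194 CPM (4.64). All 3 were highest in CTRL, but up to 12000 UMIs Sirt2 stood at 946, 1162 and 717 CPM and Itpr2 at 221, 230 and 162, highest in BEP. Bmp4, a secreted growth factor, stood at 44.6, 20.5 and 51.7 CPM, against levels of 0.0783 to 0.207 in other cells, and its UMIs came from 18, 10 and 63 cells. Tcf7l2, a transcription factor of Wnt signalling that is high in newly forming oligodendrocytes, stood at 141, 108 and 123 CPM (1.80). Casr and Dct, also on this list, had no UMI.

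Transcription factors of the lineage were higher as well, 12 of 18 by at least 2-fold and none lower by that much, with a median of 1.22. Sox10, a factor of all oligodendrocyte stages, stood at 251 CPM in CTRL (interval 220 to 286), 122 in BEP (99.9 to 147) and 263 in LEP (247 to 279), against 7.95, 6.51 and 18.5 in other cells. It was lowest in BEP over all lineage cells, but up to 12000 UMIs it stood at 333 CPM in CTRL (285 to 388), 293 in BEP (228 to 370) and 406 in LEP (366 to 449), where the intervals of CTRL and BEP overlap. Myrf, which switches on myelin genes, stood at 35.9, 18.2 and 19.8 CPM against 0.313 to 0.401 (log2 ratio 4.07), and Nkx2-2 at 62.0, 36.4 and 64.1 CPM (2.24). Olig1 at 552, 545 and 822 CPM and Olig2 at 310, 319 and 423 CPM were less than 2-fold above other cells, with log2 ratios of 0.77 and 0.67. Olig1 and Olig2 were well expressed by other cells too, at 431 and 244 CPM.

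The 20 genes with the largest ratios among those of at least 50 CPM that met the naming rules also held genes of axons, cytoskeleton and synapses. Tubb4a, a tubulin of oligodendrocytes and neurons, stood at 207 CPM in CTRL, 172 in BEP and 136 in LEP against 3.55 to 3.98 in other cells (log2 ratio 4.98). S100b, a calcium-binding protein often used for astrocytes but also made by this lineage, stood at 174, 113 and 119 CPM (4.93). Nfasc, which helps to build the node of Ranvier, stood at 102, 99.1 and 77.2 CPM (4.24). Opcml, Lims2, Dnm3, Phactr3, Vxn, Ptpre, Slc1a1, Cyfip2, Khdrbs2, C1ql1 and Tmeff2 also belonged to this set, with ratios from 3.56 to 4.36. All 20 were at least 2-fold higher also over cells of up to 12000 UMIs and when cells were given equal weight.

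The 10 lowest ratios among genes of at least 50 CPM that met the naming rules lay between -1.69 and -1.50. In cells of up to 12000 UMIs the same genes lay between -4.39 and -2.12. Acta2, smooth muscle actin, stood at 80.5 CPM in CTRL, 155 in BEP and 27.8 in LEP lineage cells against 252, 309 and 119 in other cells (log2 ratio -1.58). Tagln, a protein that binds actin, Tnfrsf12a, Hmox1, Mef2c, Car2, Hbegf, S100a11, Arhgap18 and the histone gene Hist1h3c made up the other 9. Vim stood at 1028, 1735 and 1332 CPM against 2675, 2869 and 2955. Of 15 genes of neural stem cells or progenitors 6 were at least 2-fold lower and none higher, with a median of -0.94, which became -2.08 in cells of up to 12000 UMIs, with 11 of 15 lower. Among 15 inhibitors of differentiation 5 were at least 2-fold lower and 1 higher (median -0.58). Id3, an inhibitor of helix-loop-helix factors, stood at 179, 235 and 246 CPM against 340, 326 and 645, and it was lower in every library.

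Markers of other cell types were low in most cases. Of 9 genes of microglia or macrophages 7 had no UMI in lineage cells, among them Cx3cr1, Csf1r and Ptprc, and their summed level was at most 0.515 CPM in any library. The endothelial genes Cldn5, Cdh5 and Tek and the Schwann cell or neural crest genes Pmp2 and Foxd3 had none either, and each of these lists summed to at most 10.04 CPM. Pdgfrb, Dcn, Lum and Kcnj8 of mural cells or fibroblasts were at 0, while Acta2 gave that list 80.5, 156 and 28.3 CPM. The summed level of 12 astrocyte genes was 384 CPM in CTRL, 478 in BEP and 639 in LEP lineage cells against 544, 612 and 1092 in other cells. The defining markers Gfap and Aqp4 stood at 8.49 and 11.6 CPM in LEP, with Gfap at 0 in CTRL and BEP, and S100b belongs to this list. The 12 neuron genes summed to 428, 346 and 459 CPM against 239, 246 and 217 in other cells. Up to 12000 UMIs the astrocyte genes summed to 355, 472 and 325 CPM in lineage cells, and 11 of 12 were at least 2-fold lower than in other cells (median -3.02), against 4 of 12 over all depths (-0.84).

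**Figure D2:**
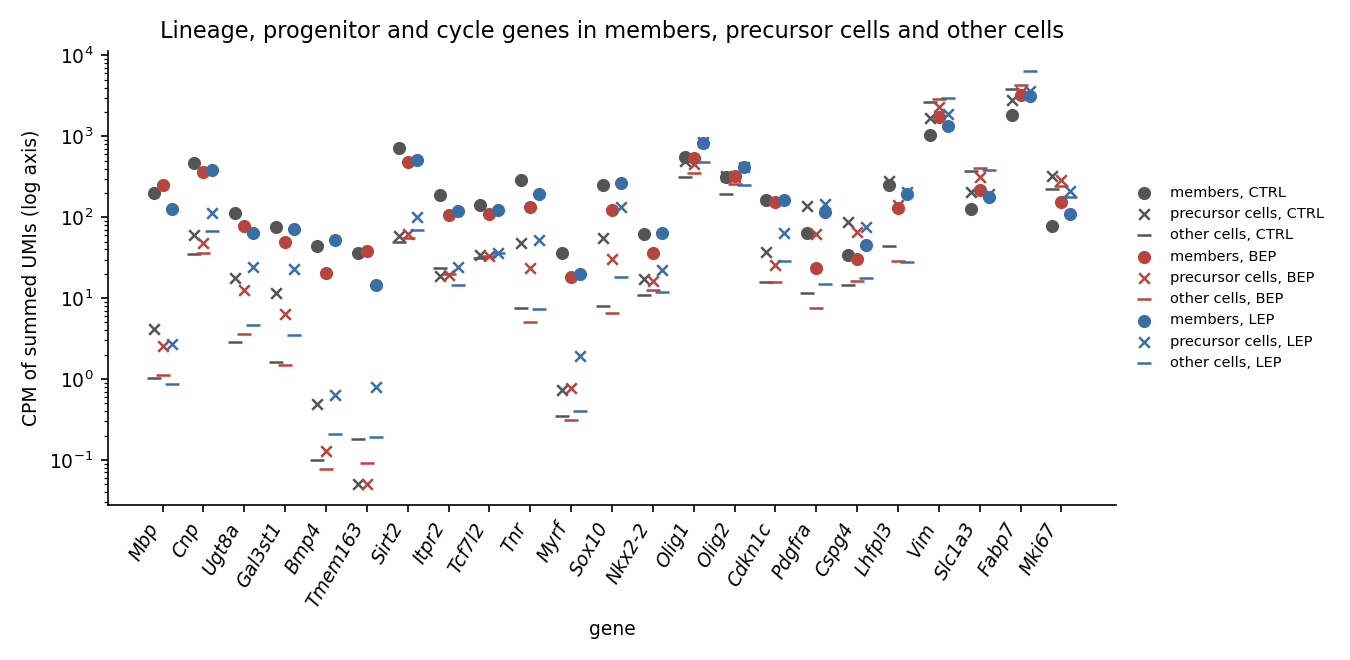
CPM on a log axis of 23 lineage, progenitor and cycle genes in each library for members, precursor cells and other cells; a level under 0.05 CPM is drawn at 0.05 and a member level is a filled circle. The myelin and committed-stage genes on the left separate members from both other sets in all 3 libraries, while Olig1 and Olig2 overlap.

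Shallow and deep lineage cells differed. Vim went from 280 CPM in lineage cells of under 6000 UMIs through 408, 520 and 1243 to 2008 CPM in those of 20000 or more, while in other cells it lay between 1979 and 3012 CPM over the same ranges. Slc1a3, a glutamate transporter of radial glia and astrocytes, went from 39.5 to 285 CPM in lineage cells and from 226 to 411 in other cells. Mki67, a gene of dividing cells, went from 30.4 to 169 CPM in lineage cells and from 87.9 to 303 in other cells. Apoe, an apolipoprotein of astrocytes, went from 15.2 to 208 CPM in lineage cells, and from 297 to 227 in other cells. For these 4 genes the deepest lineage cells were thus nearer in ratio to other cells of their range than the shallowest were. The libraries also differed over the ranges, with 42 cells of CTRL, 3 of BEP and 22 of LEP in the shallowest and 7, 12 and 64 in the deepest. Of the lineage genes, Sirt2 went the other way, from 1091 to 375 CPM, as did Sox10 from 310 to 153 and Mbp from 465 to 113. The fall was not steady. In cells of at least 6000 and under 9000 UMIs Sox10 stood at 401 CPM and Mbp at 169, and Mbp at 278 in the next range. Olig1 changed less, from 742 to 645 CPM. Each was still above its level in other cells. Depth and library moved with these levels, and their part in them was not tested.

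**Figure D3:**
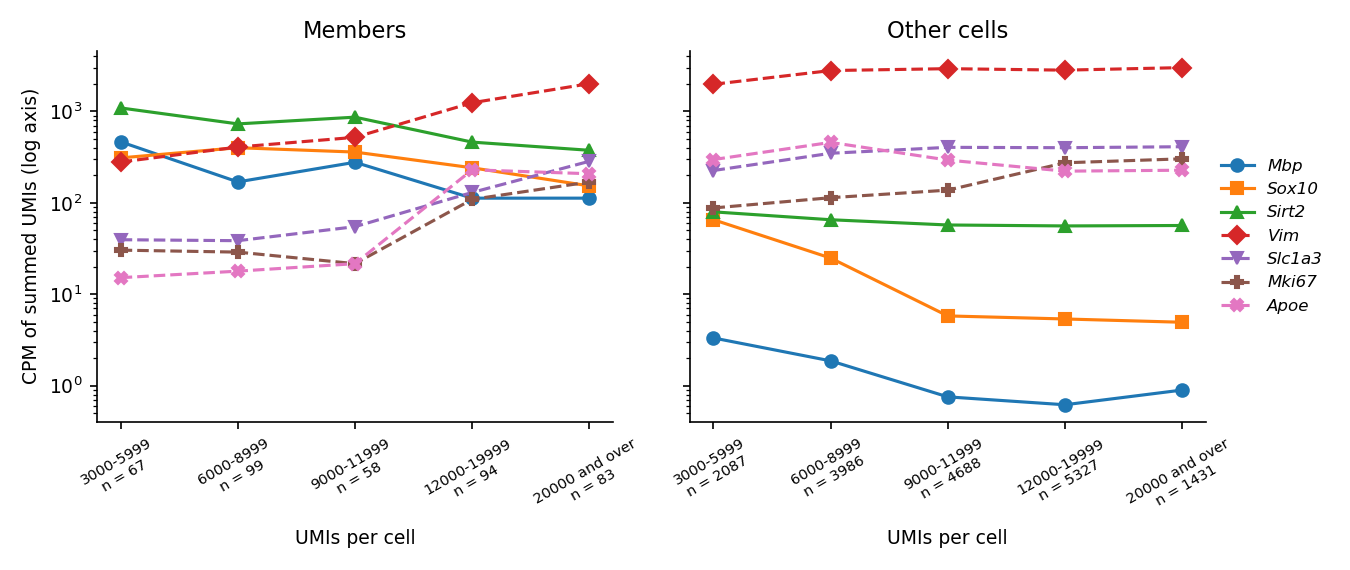
CPM on a log axis of 3 lineage genes (solid lines) and 4 progenitor, cycle or astrocyte genes (dashed lines) by UMIs per cell, with the number of cells under each range, pooled over libraries. In members, on the left, Vim goes from 280 to 2008 CPM as depth grows, while in other cells, on the right, it lies between 1979 and 3012 CPM.

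Cells outside the rule with UMIs of at least 2 of Pdgfra, Cspg4 and Lhfpl3 were called precursor cells, after the genes that chose them. They numbered 504 in CTRL, 536 in BEP and 544 in LEP. Their levels of those 3 genes were set by that choice. Of 6247 genes, 114 stood higher in lineage cells than in precursor cells by at least 2-fold (1.82%) and 33 lower by that much (0.528%), the latter 17 without the CTRL, 56 without the BEP and 84 without the LEP library. In cells of up to 12000 UMIs 213 of 6227 (3.42%) were higher and 255 (4.1%) lower. As above, the rule used these counts, and the values are a description.

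Myelin and committed-stage genes again led. Mbp stood at 4.16 CPM in CTRL, 2.57 in BEP and 2.70 in LEP precursor cells, far under the 127 CPM or more of lineage cells (log2 ratio 5.34). Bmp4, the growth factor of the committed stage, was at 0.533 CPM in the weighted precursor cells against 45.8 (4.93). S100b, Tubb4a, Nfasc, Sirt2, Opcml, Itpr2, Sgk1, a kinase induced by glucocorticoids, and Rab33a, a small GTPase, followed with ratios from 3.70 to 2.33. Of the 20 committed-stage genes, 13 were at least 2-fold higher than in precursor cells (median 1.74 against 0.02 over all genes compared). Of the 26 myelin genes 9 were (median 0.73).

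Other lineage genes were found in both sets, at like levels for Olig1 and Olig2 but not for Sox10. Olig1 stood at 736 CPM in lineage cells and 727 in precursor cells, and Olig2 at 389 and 388. Sox10 stood at 239 and 106 CPM, a log2 ratio of 1.16, and by library at 56.0 CPM in CTRL, 30.5 in BEP and 136 in LEP precursor cells. Without thinning, a Sox10 UMI was found in 27.2% of CTRL, 26.1% of BEP and 56.4% of LEP precursor cells. In lineage cells these shares were 83.5%, 76% and 89.1%. Most precursor cells of CTRL and BEP thus had no Sox10 UMI, and whether they are an earlier stage of this lineage was not tested. Pdgfra itself was still present in lineage cells at 63.1, 23.9 and 117 CPM against 11.7, 7.52 and 14.95 in other cells, and 45.1% of lineage cells had a UMI of it. Pdgfra was thus above its level in other cells in every library.

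Cycle genes had the lowest ratios to precursor cells among genes that met the naming rules. The 10 genes with the lowest ratios were Hist1h3c, Hist1h2ab, Hist1h1b, Hist1h3b, Hist1h3f and Hist1h2ae, histone genes read during DNA replication, with Mki67, Spc24, Atad2 and Aurkb, genes of division. Their log2 ratios lay between -1.71 and -1.04, and between -3.23 and -1.78 in cells of up to 12000 UMIs. Mki67 stood at 77.2 CPM in CTRL, 156 in BEP and 110 in LEP lineage cells, against 326, 286 and 212 in precursor cells and 223, 245 and 179 in other cells. Of 16 G2/M genes 3 were at least 2-fold lower than in precursor cells and none higher (median -0.88), and in cells of up to 12000 UMIs all 16 were, with a median of -2.46.

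By cell, 23.7% of lineage cells had a UMI of Mki67 or Top2a after thinning (interval 19.6 to 28.2%), against 45.1% of precursor cells and 45.1% of other cells. By library the share was 24.3% in CTRL, 34.0% in BEP and 21.4% in LEP lineage cells, with intervals that overlap. Without thinning it was 39.4% of lineage cells and 62.0% of other cells. With thinning, cells of up to 12000 UMIs gave 10.7% of lineage, 37.8% of precursor and 33.3% of other cells. Cells over 12000 UMIs gave 40.1%, 62.5% and 63.8%, also with thinning. The pooled thinned share was below that of both other sets in each depth range, but 248 of the 401 lineage cells were from LEP. In BEP over 12000 UMIs the thinned share was 65.0% of lineage, 66.0% of precursor and 63.5% of other cells. A UMI of these genes can also come from free RNA, and these shares are no count of dividing cells. Cdkn1c, an inhibitor of cyclin-dependent kinases, stood at 164, 156 and 163 CPM in lineage cells against 37.7, 25.9 and 63.3 in precursor cells and 15.7, 15.8 and 29.0 in other cells, nearly level over the libraries, though at 229, 326 and 129 CPM in lineage cells of up to 12000 UMIs. Cdkn1b, another such inhibitor, was not higher in lineage cells, at 61.8 CPM against 85.6 in other cells.

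Among the lineage cells, those with Enpp6 stood apart from those without. The 130 cells with an Enpp6 UMI (35 in CTRL, 22 in BEP, 73 in LEP) were set against the other 271, and this split used the same counts, so it too is a description. Of 6360 genes, 154 were higher with Enpp6 by at least 2-fold (2.42%) and 63 lower by that much (0.991%), and without the LEP library 231 and 284. In cells of up to 12000 UMIs 424 of 6324 (6.7%) were higher and 458 (7.24%) lower. Mbp stood at 389 CPM with Enpp6 and 18.6 without it, a log2 ratio of 4.31. Tmem163, a zinc transporter, stood at 54.9 and 1.83 CPM (4.31), Bmp4 at 93.6 and 16.2 (2.46), and Myrf at 41.9 and 9.94 (1.97). Most of the myelin signal of the lineage cells was thus in the cells with Enpp6. Map1b, which binds microtubules, stood at 699 and 156 CPM (2.16), and Parvb, Tmem108, Nfasc, Rab33a and Tubb4a were higher with ratios from 2.20 to 3.07.

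Some precursor genes were lower in the cells with Enpp6. Pdgfra stood at 37.7 CPM with Enpp6 and 117 without (log2 ratio -1.61), Cspg4 at 21.4 and 53.7 (-1.29), and Sox9, a factor of glial progenitors, at 77.3 and 180 (-1.21). Hist1h1b, Neto1, Ugdh, Map3k1, Cntn1, Hist1h2ae and Kcnd2 were lower with ratios from -1.55 to -1.21. Of the 12 precursor genes 5 were at least 2-fold lower and none higher (median -0.91 against -0.03 over all genes compared). In contrast 11 of 20 committed-stage genes and 10 of 26 myelin genes were at least 2-fold higher and none lower. Sox10 stood at 255 CPM with Enpp6 and 218 without it. G2/M genes had a median of -0.19 over all cells and -1.81 in cells of up to 12000 UMIs, where 13 of 16 were at least 2-fold lower.

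Thinned to the same depth, the classes of the rule differed in the same way. A UMI of Mbp was left in 42.1% of cells with all 3 genes, 42.9% of those with Bcas1 and Enpp6, 5.54% of those with Bcas1 and Gpr17, and 0.290% of cells with none. Sirt2 was left in 93.5%, 85.7%, 45.8% and 15.8%. For these genes, Enpp6 marked the classes with the higher shares. Pdgfra was left in 7.48%, 4.76%, 27.7% and 3.12%, so of these classes cells with Bcas1 and Gpr17 carried it most often. The 398 cells with Gpr17 alone, outside the rule, had Sox10 in 30.2%, Pdgfra in 22.6% and Lhfpl3, a membrane protein of precursors, in 48.0%. Vim was left in 66.7 to 72.9% of the 3 larger lineage classes and in 98.2% of cells with none of the genes.

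**Figure D4:**
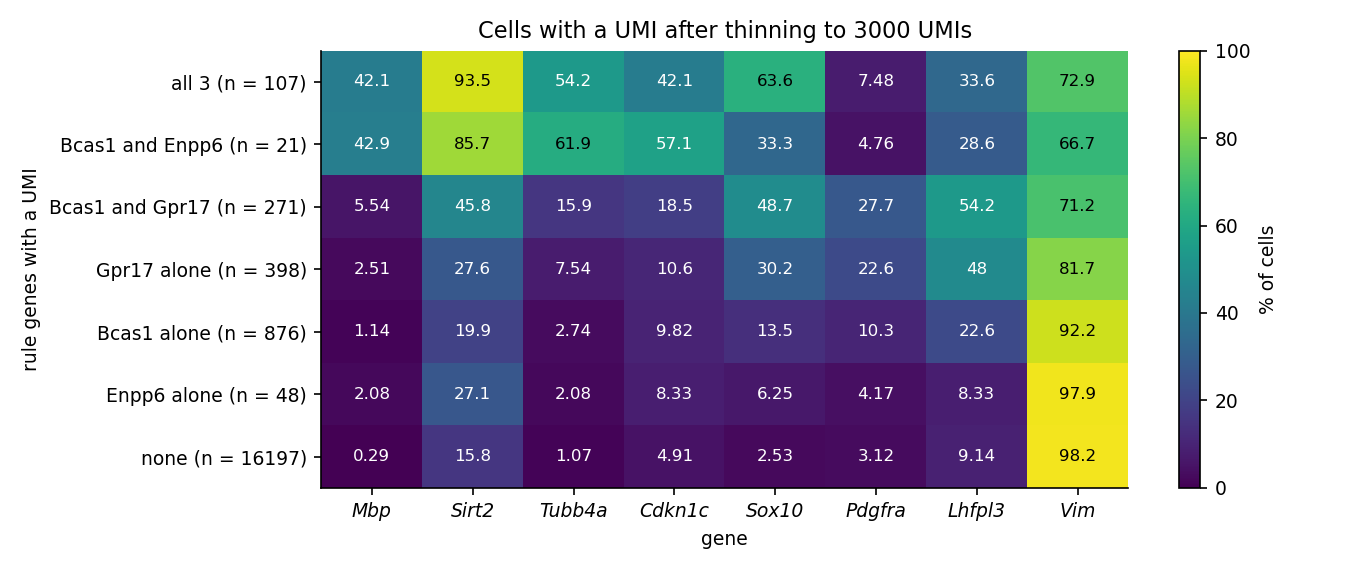
The percent of cells with a UMI of each of 8 genes after every cell was thinned to 3000 UMIs, by which rule genes had a UMI before thinning; n is the number of cells, the class of 2 cells with Enpp6 and Gpr17 is not drawn, and the bottom 4 rows lie outside the rule. Mbp is most frequent in the classes with Enpp6 and at least 1 other rule gene, and Pdgfra in the class with Bcas1 and Gpr17.

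The libraries were then compared within the lineage cells. These comparisons did not enter the rule, although the rule's own genes and depth differ between libraries. BEP and LEP are each set against the same CTRL library, so the comparisons are not independent. A gene was counted when it reached 20 CPM and 20 UMIs in either library. List counts further down have no such minimum and are to be read beside the shares given here. BEP over CTRL had 318 of 6174 genes higher by at least 2-fold (5.15%) and 197 lower by that much (3.19%), against 0.637% and 0.62% in other cells. LEP over CTRL had 95 of 6323 higher (1.5%) and 40 lower (0.633%), against 1.24% and 1.05% in other cells. BEP over LEP had 179 of 6474 higher (2.76%) and 132 lower (2.04%), against 0.903% and 0.569%. The sums over lineage cells rest on 878144 to 3885391 UMIs in a library, far fewer than those over other cells. Up to 12000 UMIs the counts were 60 of 3610 higher (1.66%) and 121 lower (3.35%) for BEP over CTRL, 264 of 5565 (4.74%) and 57 (1.02%) for LEP over CTRL, and 122 of 5540 (2.2%) and 346 (6.25%) for BEP over LEP.

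Interferon-response genes had the largest ratios of BEP over CTRL among genes that met the naming rules. Cxcl10, a chemokine that interferon induces, had 1 UMI in CTRL lineage cells, 229 in BEP and 2 in LEP, or 1.09, 261 and 0.515 CPM, and the BEP level was 240 times that of CTRL (interval 42.6 to 9512). Isg15, a ubiquitin-like protein, had 0, 207 and 3 UMIs, at least 72.2-fold higher in BEP than in CTRL when the floor of CTRL is taken as 3 UMIs. Ifit1, which binds viral RNA, had 48 UMIs in BEP and none elsewhere (at least 16.8-fold), and Oasl1 44 in BEP and none elsewhere (at least 15.4-fold). The BEP library was thus high, and the other two held a few UMIs at most. Of 18 interferon-response genes, 17 were at least 2-fold higher in BEP than in CTRL lineage cells and none lower, and 15 in other cells. Their median was 3.41 in lineage cells, against 0.01 over all genes compared, and 3.54 in other cells.

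In BEP most of this signal lay in deep lineage cells. Summed over Cxcl10, Isg15, Ifit1, Rsad2 and Oasl1, a set that an earlier analysis picked after seeing these data, the level was 649 CPM in BEP lineage cells (597 to 705), 795 in BEP precursor cells and 1082 in BEP other cells. It was 5.44 CPM in CTRL and 1.54 in LEP lineage cells. After thinning, 8 of 50 BEP lineage cells had a UMI of the set (16.0%, interval 7.17 to 29.1%), against 23.1% of precursor and 34.5% of other cells. Without thinning it was 21 of 50 (42%), against 39.6% and 53.9%, and over 12000 UMIs 17 of 20 (85%), against 71.5% and 69.1%. With thinning, cells over 12000 UMIs gave 7 of 20 (35%, interval 15.4 to 59.2%), against 43.5% and 43.7%. In this depth range lineage cells were thus highest only without thinning. In cells of up to 12000 UMIs the set had only 5 UMIs in 30 BEP lineage cells, or 20.9 CPM (6.79 to 48.8), against 81.0 CPM (69.7 to 93.5) in precursor cells and 539 in other cells. In cells over 12000 UMIs it stood at 884 CPM (813 to 960), 1092 and 1327. The shallower BEP lineage cells were thus far below other BEP cells of the same depth range, and the 20 deeper ones much closer to them.

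The BEP droplets also held free RNA of these genes, with 393 CPM of Cxcl10 and 114 of Isg15 in barcodes of 10 to 100 UMIs. In the lineage cells of up to 12000 UMIs, Cxcl10 was at 16.7 CPM and Isg15 at 4.18 CPM, below those free levels. Ccl5, a chemokine, had 44 UMIs in BEP lineage cells, from 4 cells, and 1 in CTRL, but none in the 30 shallower BEP cells. In these shallower cells the median of the 18 interferon genes over CTRL was 0.00, with 3 at least 2-fold higher and 4 lower. Ifit1 and Oasl1 had no UMI there in BEP or CTRL, and the 18 genes summed to 37.6 CPM in BEP and 29.9 in CTRL. The set of 5 genes had 5 UMIs in BEP and 3 in CTRL. Counts this small cannot show whether the list was higher. The part of free RNA in the level of the deeper cells was not tested.

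Several genes of the integrated stress response, a programme that the factor Atf4 drives when amino acids run short or proteins misfold, were highest in CTRL. Ddit3, a transcription factor of that response, stood at 142 CPM in CTRL (interval 119 to 169), 44.4 in BEP (31.6 to 60.7) and 17.2 in LEP lineage cells (13.4 to 21.9). Chac1, which breaks down glutathione, stood at 52.2, 12.5 and 1.03 CPM, and Atf4 at 224, 146 and 78.8 CPM. In each the order was CTRL, BEP, LEP, as in other cells, where Ddit3 stood at 218, 48.7 and 19.8 CPM. Mthfd2, a mitochondrial folate enzyme, stood at 153, 99.1 and 30.1 CPM and Sesn2, a stress-induced inhibitor of growth signalling, at 60.9, 47.8 and 16.2. The log2 ratios of LEP over CTRL were -4.71 for Chac1, from 4 UMIs in LEP, -2.98 for Ddit3, -2.31 for Mthfd2, -1.85 for Sesn2 and -1.50 for Atf4.

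Over the list of 20 stress-response genes, 10 were at least 2-fold lower in LEP than in CTRL lineage cells and none higher. Their median was -0.96, against 0.06 over all genes compared. The same count, 10 and none, was found in cells of up to 12000 UMIs (median -1.04), and in other cells 15 were lower (median -1.39). BEP over CTRL had 4 lower and 1 higher (median -0.32), and up to 12000 UMIs 8 lower and 1 higher (-0.83). The fraction of lineage cells with a Ddit3 UMI after thinning was 26.2% in CTRL, 14% in BEP and 3.23% in LEP, the same order as the sums. Free RNA had that order too, with Ddit3 at 138, 57.3 and 30.4 CPM in barcodes of 10 to 100 UMIs, and its part in the lineage cells was not tested.

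Some immediate early genes, which cells switch on within minutes of a stimulus, were higher in LEP. Fos stood at 8.70 CPM in CTRL, 7.97 in BEP and 47.1 in LEP lineage cells (intervals 3.76 to 17.1, 3.20 to 16.4 and 40.5 to 54.4), with LEP apart from the other two. Egr1 stood at 53.3, 67.2 and 136 CPM, and Btg2, an antiproliferative gene, at 65.3, 83.1 and 179. Of 20 immediate early genes 8 were at least 2-fold higher in LEP than in CTRL and 3 lower (median 0.82), and up to 12000 UMIs 12 higher and 3 lower (1.06). Over all genes compared 1.5% were higher and 0.633% lower, and up to 12000 UMIs 4.74% and 1.02%. Summed, the list stood at 555 CPM in CTRL, 757 in BEP and 813 in LEP lineage cells, and up to 12000 UMIs at 397, 372 and 585, so BEP was near LEP in the first sum and near CTRL in the second. In other cells Fos stood at 23.5, 19.0 and 72.9 CPM and the list had a median of 0.11, with 4 higher and 3 lower. Egr1 was 165 CPM in LEP and 141 in CTRL other cells, a smaller difference than in lineage cells, and the difference between the sets was not tested.

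**Figure D5:**
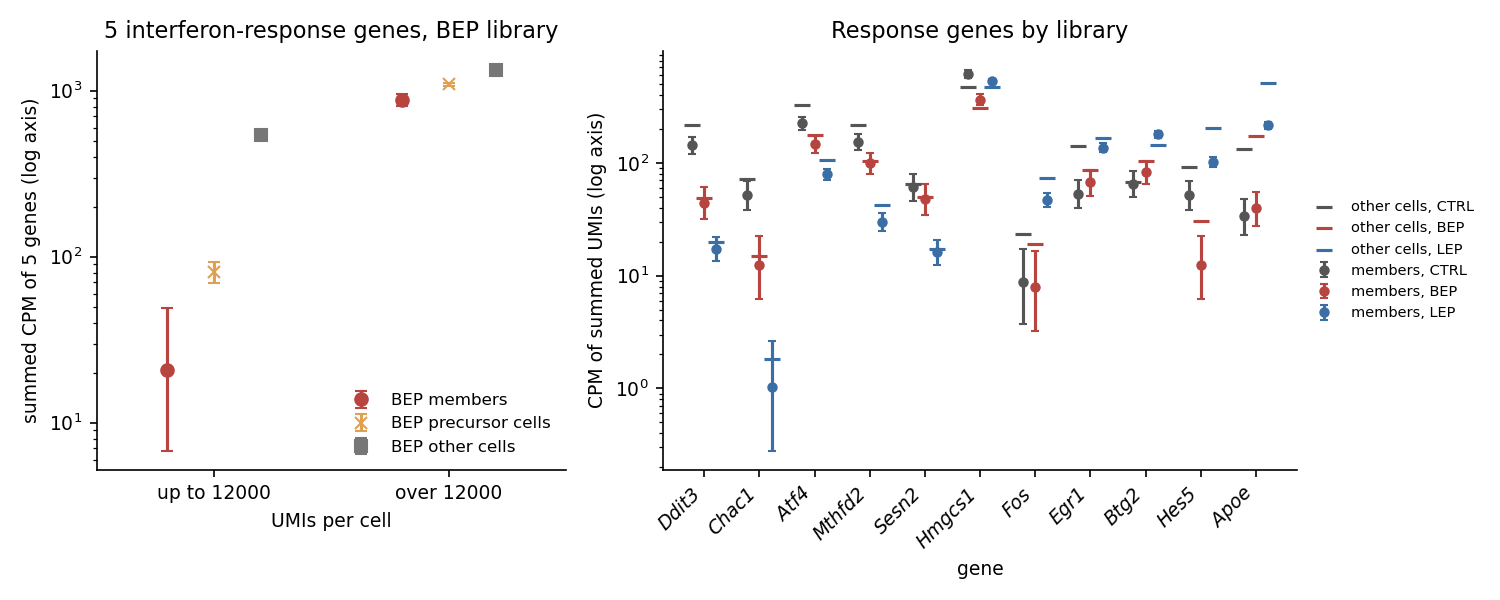
Left, the summed CPM of Cxcl10, Isg15, Ifit1, Rsad2 and Oasl1 in BEP members, precursor cells and other cells of up to and over 12000 UMIs; right, the CPM of 11 response genes in members (points) and other cells (bars) of each library, both on log axes with exact 95% Poisson intervals. BEP members of up to 12000 UMIs stand at 20.9 CPM against 539 CPM in other cells, and Ddit3 and Chac1 are highest in CTRL and lowest in LEP in both sets.

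Hes5, a Notch target that holds precursors undifferentiated, stood at 52.2 CPM in CTRL, 12.5 in BEP and 101 in LEP lineage cells, and at 91.5, 30.6 and 202 in other cells, lowest in BEP and highest in LEP in both. Its UMIs came from 13, 6 and 84 lineage cells, and up to 12000 UMIs the levels were 9.97, 4.18 and 18.6 CPM, from 5, 1 and 17 UMIs. The Notch ligand Dll1 stood at 19.6, 19.4 and 51.2 CPM, level in CTRL and BEP, and Dll3, a related protein, at 85.9, 46.7 and 134. Apoe stood at 33.7, 39.9 and 215 CPM, with 835 of its UMIs in LEP from 87 cells. Barcodes of 10 to 100 UMIs held Apoe at 115, 144 and 324 CPM, above the lineage cells of every library and also highest in LEP, and the part of this free RNA was not tested. Its log2 ratio of LEP over CTRL was 2.64, and 1.19 up to 12000 UMIs. In other cells Apoe stood at 133, 172 and 512 CPM, and the 12 astrocyte genes had a median of 0.74 in lineage cells and 0.60 in other cells for LEP over CTRL.

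Some cholesterol synthesis genes were lower in BEP lineage cells as summed. Hmgcs1, an early enzyme of the pathway, stood at 614 CPM in CTRL, 361 in BEP and 529 in LEP. It was lowest in BEP also in other cells, at 474, 303 and 472 CPM. Of 19 genes 5 were at least 2-fold lower in BEP than in CTRL lineage cells and none higher (median -0.77), and 4 in other cells (median -0.67). Among all genes compared 3.19% were lower in lineage cells and 0.62% in other cells. Up to 12000 UMIs none was past 2-fold (median -0.07), and Hmgcs1 had a log2 ratio of 0.09 there against -0.77 over all lineage cells.

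The differences of lineage genes between libraries changed with depth in several cases. Bmp4 stood at 44.6 CPM in CTRL, 20.5 in BEP and 51.7 in LEP lineage cells, but at 41.9, 66.9 and 68.8 up to 12000 UMIs, so BEP was lowest in one and not in the other. Mbp, at 201, 248 and 127 CPM over all lineage cells, was at 325, 648 and 136 up to 12000 UMIs, lowest in LEP both times. In cells over 12000 UMIs it was at 52.6, 98.6 and 124 CPM, highest in LEP, so the order of the libraries turned with depth. Tmem163 stood at 35.9, 38.7 and 14.7 CPM, also lowest in LEP, and in the shallower cells at 57.8, 92.0 and 8.73. Pdgfra stood at 63.1, 23.9 and 117 CPM and in the shallower cells at 81.8, 46.0 and 150, highest in LEP both times. Enpp6 UMIs were found in 34.0% of CTRL, 44.0% of BEP and 29.4% of LEP lineage cells. As lists, myelin genes had a median of 0.24 for BEP over LEP, with 6 at least 2-fold higher and 1 lower, and 0.86 up to 12000 UMIs, with 12 higher and 2 lower. Precursor genes had a median of -0.55, with 4 lower and none higher.

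The cycle lists moved with depth as well. For BEP over CTRL, 9 of 16 G2/M genes were at least 2-fold higher and none lower in lineage cells (median 1.00), while none passed 2-fold in other cells (median 0.20). Among all genes compared 5.15% were higher and 3.19% lower in lineage cells. Summed, the G2/M genes stood at 1066 CPM in CTRL, 2164 in BEP and 1215 in LEP lineage cells, and at 2327, 2613 and 2076 in other cells. Over all depths lineage cells of CTRL and LEP were thus far below other cells, and those of BEP nearer to them. Up to 12000 UMIs the sums were 199, 544 and 359 CPM in lineage cells against 1641, 1732 and 896 in other cells. Lineage cells of every library, BEP included, were far below other cells there. In that range 10 of the 16 genes were higher in BEP than in CTRL lineage cells and 2 lower (median 1.51). These ratios come from small sums: Mki67 and Top2a together had 31 UMIs in 80 CTRL cells and 32 in 30 BEP cells.

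The remaining genes named by size were as follows. Csrp1, Anxa2, H1f0, Tnfrsf12a and Incenp were higher in BEP than in CTRL lineage cells, with log2 ratios from 2.09 to 2.52; Anxa2, a protein that binds membranes, stood at 83.1 against 15.2 CPM. Dcc, an axon guidance receptor, Plppr1, Slc1a1, Ick, Nbea and Pcdh15 were lower in BEP, with ratios from -1.58 to -1.44. Up to 12000 UMIs H1f0 stood at 0.99, Slc1a1 at -0.62 and Pcdh15 at -0.66. In LEP over CTRL, Gstm1, Pdlim4, Tmem199, Hist1h1c, Rsl24d1 and Ttyh1 were higher, with ratios from 1.18 to 1.65. Up to 12000 UMIs Gstm1 stood at 0.25, Tmem199 at 0.89 and Ttyh1 at -0.01. Rab3b, a GTPase of vesicle release, Slc7a1, Snhg12, Acta2 and Eif4ebp1 were lower in LEP, with ratios from -2.11 to -1.42. In BEP over LEP, Acta2, Rab3b, Pbxip1, Crip2 and Tgfb2 were higher, with ratios from 1.91 to 2.44. Pdgfra, Dll3, Slc6a6, Ick, Dll1, Sh3bp4, Bmp4 and Amotl2 were lower there, with ratios from -2.24 to -1.29. Up to 12000 UMIs Sh3bp4 stood at -0.58, Bmp4 at -0.04 and Amotl2 at -0.75.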

How the data were processed

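The authors deposited unfiltered UMI counts per gene and barcode (32285 genes, 3 libraries of 1591037 to 1726139 barcodes, 74429007 to 85743257 UMIs). Cell Ranger 6, Seurat 4.0.4 and GRCm38/mm10 are named per the submitters' processing notes, and Cell Ranger 4 per the file headers. Coordinates come from GENCODE annotation of GRCm38, while the authors' annotation release and their strand setting are not given in the sources used here. Members, gene lists, marker lists and tests were chosen with earlier results of these data known.

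Counts were summed per library and set of cells, scaled to CPM and compared as log2(CPM + 1) differences in Python 3.11.15 (numpy 2.4.6, scipy 1.17.1, pandas 2.3.3). For the comparisons of cell sets the reference was weighted by each library's part of the members' UMIs. The naming rules asked for at least 50 CPM in either set and the largest ratios. That gave 20 higher and 10 lower genes against other cells, and 10 each way elsewhere. Between sets of cells a named gene also needed the same sign in every library with at least 20 lineage cells, so this agreement was part of the choice. Between libraries it needed 20 UMIs in either library. Most genes with symbols that start with Gm, and those that start with Rps, Rpl or mt- or end in Rik, were left out. The 3 rule genes were left out of lists and named genes, and list counts use every gene of a list with no minimum level. Shares and medians over all genes compared cover only genes of at least 20 CPM in either set, and of 20 UMIs in library comparisons. Thinning drew 3000 UMIs per cell without replacement. Values of some genes that met these rules are not reported here. The matched ratio was tested on simulated counts. Alternatives were other cell limits, rules, pseudocounts, minimum levels, scalings, cell means and left-out libraries. Replication was absent, so no p-value was computed.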

Additional observations from a re-analysis of the deposited data

How the results depend on the processing

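With 1 library a group, precision is set by 50 to 248 lineage cells per library and is counting error only. No paired analysis was possible because each group has 1 library. Over the alternatives, 2961 of 4062 ratios of single genes, 1082 of 1224 list medians and 90 of 160 shares and gene counts differed from the main value by less than its counting interval (by less than 1.5 times for gene counts). The cause of a change was not tested. Scaling by median ratios moved the median gene by -0.04 to 0.04 on the log2 scale, and the share of higher genes in LEP over CTRL from 70.4% to 60.8%. The limit of 12000 UMIs was chosen after levels by depth were seen.

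Shares of lineage cells in CTRL, BEP and LEP were 0.460%, 0.271% and 1.02% when all 3 rule genes were asked for, 0.755%, 0.434% and 2.29% with 2 UMIs of each of at least 2 genes, and 1.00%, 0.325% and 1.60% after thinning to 3000 UMIs. CTRL was 1.21% with a minimum of 6000 UMIs, and LEP 3.44% with a maximum of 25000 and 3.10% with one of 12000. LEP was highest and BEP lowest in each of these settings. Within depth ranges LEP was highest throughout, but BEP was not always below CTRL. It stood at 1.71% against 1.65% in cells of at least 6000 and under 9000 UMIs. From 9000 to under 12000 UMIs it stood at 0.770% against 0.641%, and it was lower than CTRL in the remaining ranges.

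Genes at least 2-fold higher in lineage than in other cells numbered 473 with all 3 rule genes, 525 up to 12000 UMIs and 732 with no minimum level. Lower ones numbered 396 up to 25000 UMIs, 324 with all 3 genes, 303 with 2 UMIs each, 538 up to 12000, 406 with no minimum and 389 over cell means. Leaving out a library gave 310 to 356 and 136 to 259.

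Against precursor cells the higher genes were 290, 198, 213 and 274 with all 3 genes, 2 UMIs each, up to 12000 UMIs and no minimum. The lower ones were 179, 126, 255 and 82 in that order, 118 up to 25000 UMIs, 11 with a pseudocount of 5 CPM and 101 over cell means. Leaving out a library gave 103 to 164 and 17 to 84.

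With Enpp6 against without, the higher genes were 424 up to 12000 UMIs, 484 with no minimum and 241 over cell means. The lower ones were 458, 485 and 123, with 159 up to 25000 UMIs, 107 with 2 UMIs each and 31 with the pseudocount of 5 CPM. Leaving out a library gave 145 to 231 and 60 to 284. The log2 ratio of Isg15, 1.93 over all cells, was -0.87 up to 25000 UMIs and -1.43 up to 12000. The last value rests on 1 Isg15 UMI in all lineage cells of that range, and shows no difference between the classes.

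For BEP over CTRL the higher genes were 72 up to 25000 UMIs, 60 up to 12000 and 95 with all 3 genes, and the lower ones 121 up to 12000, 101 with all 3 genes, 114 with the pseudocount of 5 CPM and 127 over cell means. Bmp4 went from -1.08 to 0.66 up to 12000 UMIs, and Ccl5 from 4.61 to -1.09 up to 25000 and -1.58 up to 12000. CTRL lineage cells held only 1 UMI of Ccl5, and up to 12000 UMIs it stood at 0 CPM in BEP and 1.99 in CTRL. The median of interferon-response genes with at least 5 CPM went from 3.69 to -0.16 up to 25000 UMIs.

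For LEP over CTRL the higher genes were 397 with all 3 genes, 284 with 2 UMIs each, 264 up to 12000 UMIs, 51 with the pseudocount of 5 CPM, 480 with no minimum and 152 over cell means. The lower ones were 75, 122, 25, 62 and 75 for all 3 genes, 2 UMIs each, the pseudocount, no minimum and cell means, and 72 up to 25000 UMIs. Ttyh1 went from 1.18 to -0.0071 up to 12000 UMIs.

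For BEP over LEP the higher genes were 277 with 2 UMIs each, and the lower ones 428 with all 3 genes, 385 with 2 UMIs each, 346 up to 12000 UMIs, 70 with the pseudocount and 455 with no minimum. Chac1 went from 2.74 to -1.41 with all 3 genes.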

Other observations

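Genes of cell shape divided in the lineage cells. Of 17 genes of cytoskeleton and process outgrowth, 7 were at least 2-fold higher than in other cells and none lower by that much (median log2 ratio 0.46). Among all genes compared 4.96% were higher and 2.93% lower. Mapt, the microtubule protein tau, stood at 139 CPM in CTRL, 117 in BEP and 108 in LEP lineage cells against 28.5, 31.3 and 32.0 in other cells. Stmn1, which takes microtubules apart and is high in dividing cells, went the other way at 430, 642 and 622 CPM against 735, 849 and 872. Of 12 neuron genes 3 were at least 2-fold higher, among them Dcx, a microtubule protein of migrating cells, at 10.9, 6.83 and 12.6 CPM against 0.996 to 1.44.

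Targets of p53 had a median of -0.31 against other cells, with 2 of 19 at least 2-fold lower. Cdkn1a, a cycle inhibitor among them, stood at 268 CPM in CTRL, 537 in BEP and 200 in LEP lineage cells against 568, 776 and 431 in other cells, highest in BEP in both, and at 91.8, 146 and 97.1 CPM in lineage cells of up to 12000 UMIs. The 16 S-phase genes had a median of -0.74, with 4 lower, and -1.26 up to 12000 UMIs, with 12 lower. Among all genes compared with other cells 2.93% were lower, and 8.48% up to 12000 UMIs. Purine and cysteinyl leukotriene receptors other than Gpr17 summed to 8.70, 13.7 and 8.24 CPM over 11 genes, and Cysltr1 and Gpr34 had no UMI in lineage cells. The 6 ependymal genes summed to 2.18, 3.42 and 3.35 CPM.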
